A study of Mus musculus with 6 samples.

Results

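The genes followed here are the striated-muscle myosin heavy chains of the mouse: Myh1, Myh2, Myh3, Myh4, Myh6, Myh7, Myh7b, Myh8 and Myh13. They were chosen by gene symbol and not by a cut on measured values, though with earlier results of these data known. They are 9 of the 51911 genes in the deposited count table. All 9 passed the filter on low counts. RNA came from the gastrocnemius, a mostly fast calf muscle, of male mice and was sequenced in bulk, with 3 libraries from HSA-PGC-1a3 transgenic mice and 3 from wild-type mice. The transgene places PGC-1alpha3 under the promoter of human skeletal actin (HSA), active in skeletal muscle fibres. PGC-1alpha3 is a variant form of PGC-1alpha, a coactivator of transcription. The wild-type group is not described as carrying the transgene, and no other allele or agent is named for either genotype. Age, strain and the number of animals behind a library are not given in the sources used here, so p-values measure the spread between these libraries.

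Myosin heavy chain is the motor of the thick filament: its head splits ATP and pulls on actin, and its tail packs with others into the filament. Which heavy chain gene a fibre uses largely sets how fast it contracts, and muscle fibres are classed by it. Mouse limb muscle uses Myh4 (type IIB, the fastest), Myh1 (type IIX), Myh2 (type IIA) and Myh7 (type I, slow, also the slow chain of the heart). Myh3 and Myh8 are the embryonic and perinatal chains, Myh13 is known from extraocular muscle, Myh6 is the fast chain of the heart, and Myh7b is an ancient relative of the slow chains that hosts a microRNA. PGC-1alpha is known in muscle for promoting mitochondrial genes and slow, oxidative fibre features.

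The labels held for all 6 libraries: Ppargc1a, which encodes PGC-1alpha, had 94358, 73513 and 120862 counts in the transgenic libraries against 1179, 1809 and 1200 in the wild-type libraries. Libraries held 25532146 to 40846872 counts, at which a count of 3 equals at most 0.134 CPM, counts relative to the scaled library size. Fibre genes were present in every library. The 5 muscle fibre markers summed to 35822 to 36615 CPM in transgenic against 67582 to 72334 CPM in wild-type libraries. Acta1, Ckm, Des and Neb were lower in transgenic libraries, while Actn2 overlapped (log2 fold change 0.15). Scaled by library totals alone, Acta1 (-0.57) and Ckm (-0.87) fell and Actn2 rose (0.55, edgeR adjusted p = 0.00211). Des (-0.093) and Neb (-0.075) then had edgeR adjusted p-values above 0.05. In bulk muscle, fewer fibres of a type and less RNA per fibre cannot be told apart. Of 16593 genes tested, 8419 (50.7%) passed the adjusted p threshold of 0.05, with 4230 higher (25.5%) and 4189 lower (25.2%) in transgenic muscle, so a passing gene was the common case.

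The family as a whole was a smaller part of the transgenic transcriptome, and its composition differed. All 9 members together held 4.15%, 4.17% and 4.05% of all counts in the transgenic libraries against 5.29%, 5.40% and 5.56% in the wild-type libraries. These ranges did not overlap. On the scaled CPM level the family summed to 35997 ± 584 in transgenic and 62206 ± 2080 in wild-type muscle (SD, n = 3 each), which is 1.73-fold lower, against 1.31-fold lower as a share of library totals (exact two-sided permutation p = 0.1 for either, the smallest that 3 against 3 libraries can give). The mean level of Myh4 differed by -31449 CPM (transgenic minus wild type) and that of Myh1 by 5607 CPM. The 8 members without Myh4 summed to 16645, 11313 and 15429 CPM in transgenic against 6994, 9796 and 10872 CPM in wild-type libraries, so their lowest transgenic and highest wild-type values lay close together.

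Of the 9 members, 3 passed the threshold in the fit over all genes (edgeR quasi-likelihood test, Benjamini-Hochberg adjustment): Myh1 rose, and Myh4 and Myh3 fell. This share is below the 50.7% of all genes tested that passed. These 3 were also the members whose CPM did not overlap between genotypes, against 59.6% of all genes tested (30.1% higher and 29.5% lower). The median log2 fold change of the 9 members was -0.25, beside -0.016 over all genes tested. Neither the count nor the median sets the family apart. What varied was the direction among close relatives that lie next to each other on the chromosome.

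**Figure D1:**
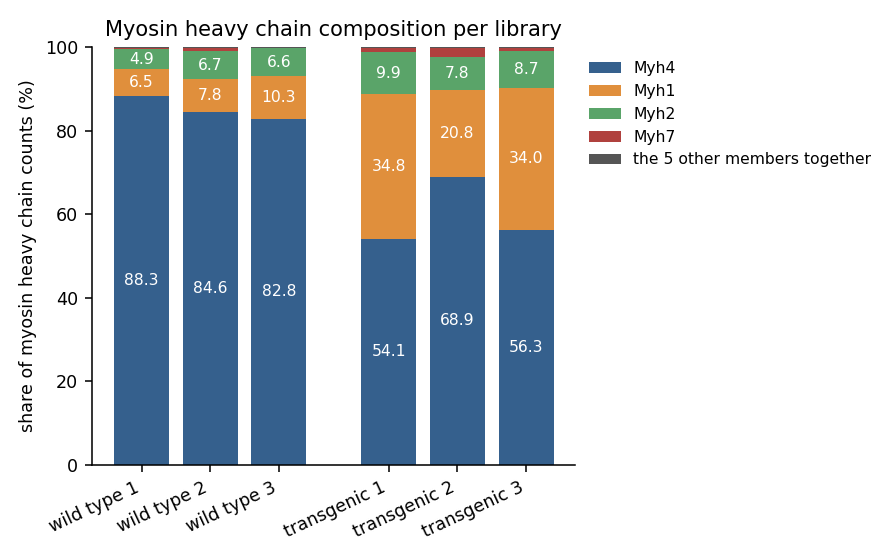
Share of each member in the summed counts of the 9 myosin heavy chain genes, in percent, for each library; bars are libraries, colours are genes, and the 5 other members together form the thin top layer. Myh4 holds 82.8% to 88.3% in wild-type and 54.1% to 68.9% in transgenic libraries, and Myh1 holds 6.45% to 10.3% and 20.8% to 34.8%.

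A share within the family does not depend on how libraries are scaled, so it gives the composition directly. Myh4 held 54.1%, 68.9% and 56.3% of the family's counts in the transgenic libraries against 88.3%, 84.6% and 82.8% in the wild-type libraries. Its share was lower in all 3 transgenic libraries, at 59.8% ± 8.02 against 85.2% ± 2.80 (SD, n = 3 each; exact permutation p = 0.1). Myh1 held 34.8%, 20.8% and 34.0% in the transgenic against 6.45%, 7.82% and 10.3% in the wild-type libraries. Its share was higher in all 3 transgenic libraries, at 29.9% ± 7.84 against 8.21% ± 1.97 (SD, n = 3 each; exact permutation p = 0.1). Transgenic library 2 stood between the other transgenic libraries and the wild-type libraries for both genes.

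Myh2 held 9.94%, 7.81% and 8.72% of the family in transgenic against 4.86%, 6.65% and 6.58% in wild-type libraries. Its share was thus higher in each transgenic library (8.82% ± 1.07 against 6.03% ± 1.01, SD, n = 3 each; exact permutation p = 0.1), although its CPM overlapped between genotypes. Without both libraries numbered 1 the difference in the Myh2 share was 1.65 percentage points, beside 2.79 with all libraries. Myh7 held 1.08%, 2.27% and 0.860% in transgenic against 0.296%, 0.857% and 0.1596% in wild-type libraries, so its lowest transgenic share and highest wild-type share were almost equal. The exact permutation p was again 0.1, the smallest possible with n = 3 each. The 5 other members together made up 0.0982% to 0.155% of the family in transgenic against 0.0818% to 0.107% in wild-type libraries, with overlap.

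Counts per kb of exon allow levels of different members to be compared. The length used was that of all annotated exons of a gene together. It was 11772 bases for Myh8 and 8616 for Myh7, against 6149 and 6230 bases in their transcripts with the longest reading frame. Levels of both are thus lower here than by transcript length, and the order of the scarce members can depend on this choice. In wild-type muscle the mean levels were 8807 CPM per kb for Myh4, 807 for Myh1, 528 for Myh2 and 31.8 for Myh7, and the ranges of these 4 did not overlap. The transgenic muscle kept the same order with non-overlapping ranges, at 3580, 1689, 445 and 58.9 CPM per kb. By raw count, with no correction for length, Myh4 had rank 1 of the whole table in all 6 libraries, while Myh1 ranked from 8 to 12 in transgenic and from 26 to 36 in wild-type libraries. The 5 others lay between 0.446 and 2.84 CPM per kb in all libraries, with Myh6 the lowest in both genotypes (0.470 to 0.682 in wild-type and 0.446 to 0.944 in transgenic libraries). Neighbours in the order of the other 4 overlapped within each genotype, and that order differed between genotypes.

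**Figure D2:**
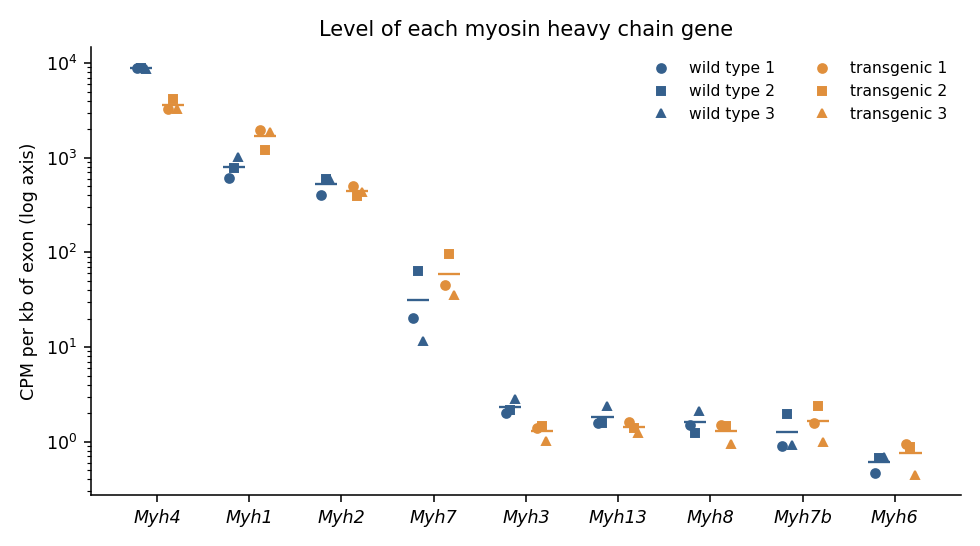
Level of each member in CPM per kb of exon on a log axis; each point is a library, symbol shape gives the library number, colour the genotype, and the bar the mean of 3. Myh4, Myh1, Myh2 and Myh7 lie in that order in both genotypes, above the 5 others, which all lie under 3 CPM per kb.

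The per-kb ratio of the IIB to the IIX transcript summarises the composition in a single number that needs no scaling. Myh4 over Myh1 was 1.64, 3.50 and 1.75 in transgenic against 14.5, 11.4 and 8.46 in wild-type libraries. The genotypes did not overlap, with a difference in the mean log2 ratio of -2.37 (exact permutation p = 0.1, n = 3 each). Myh4 over Myh2 was 6.46, 10.5 and 7.66 against 21.6, 15.1 and 14.9, without overlap. Myh1 over Myh2 was 3.93, 2.996 and 4.38 against 1.49, 1.32 and 1.77, also without overlap. Myh2 over Myh7 overlapped, from 4.15 to 12.2 in transgenic and from 9.37 to 49.8 in wild-type libraries.

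Myh4 encodes the IIB chain of the fastest, glycolytic fibres (ENSMUSG00000057003, chr11:67238029-67260446, GRCm38, forward strand). Its level was 19588, 25113 and 19904 CPM in transgenic against 52816, 53747 and 52391 CPM in wild-type libraries. The wild-type libraries agreed within 1.03-fold, and every transgenic library lay far below them. The log2 fold change was -1.30 (SE 0.092, edgeR adjusted p = 1.372e-06, lower in 3 of 3 transgenic libraries), a 2.46-fold fall. The call and direction held in every setting run, including library totals alone, where the log2 fold change was -0.90.

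Myh1 encodes the IIX chain, found in fast fibres that are more oxidative than IIB fibres (ENSMUSG00000056328, chr11:67200052-67224575, GRCm38, forward strand). Its level was 12599.9, 7585 and 12009 CPM in transgenic against 3860.5, 4971 and 6542 CPM in wild-type libraries. Every transgenic library was above every wild-type library, with transgenic library 2 the nearest to them. The log2 fold change was 1.07 (SE 0.294, edgeR adjusted p = 0.0349), a 2.09-fold rise. The direction held in every setting run, but the call was lost without transgenic library 1 (0.96, adjusted p = 0.103), transgenic library 3 (0.99, 0.111), wild-type library 1 (0.89, 0.0807) or wild-type library 2 (1.04, 0.115), and with all genes of at least 1 count kept (1.11, 0.0952). The adjusted p across all settings ranged from 0.0019 with DESeq2 to 0.171 without both libraries numbered 1.

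Myh2 encodes the IIA chain of fast oxidative fibres (ENSMUSG00000033196, chr11:67171027-67197517, GRCm38, forward strand). Its level was 3600.2, 2845 and 3081 CPM in transgenic against 2908, 4226 and 4162 CPM in wild-type libraries. The genotypes overlapped, since wild-type library 1 was as low as the transgenic libraries. The log2 fold change was -0.25 (SE 0.158, edgeR adjusted p = 0.237) and turned to 0.15 with library totals alone. Without wild-type library 1 it was -0.41 with an adjusted p of 0.00717, so that library decides whether Myh2 passes.

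Myh7 encodes the slow type I chain (ENSMUSG00000053093, chr14:54970684-54994626, GRCm38, reverse strand). Its level was 392, 827 and 304 CPM in transgenic against 177, 544 and 101 CPM in wild-type libraries. Wild-type libraries differed 5.39-fold and transgenic libraries 2.72-fold, and library 2 was the highest in both genotypes. The log2 fold change was 0.89 (SE 0.835, edgeR adjusted p = 0.439) and moved between 0.37 without transgenic library 2 and 1.86 without wild-type library 2, with no call in either case. With genotype as the only term the estimate was little larger than its SE, which does not show that slow myosin was unaffected.

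**Figure D3:**
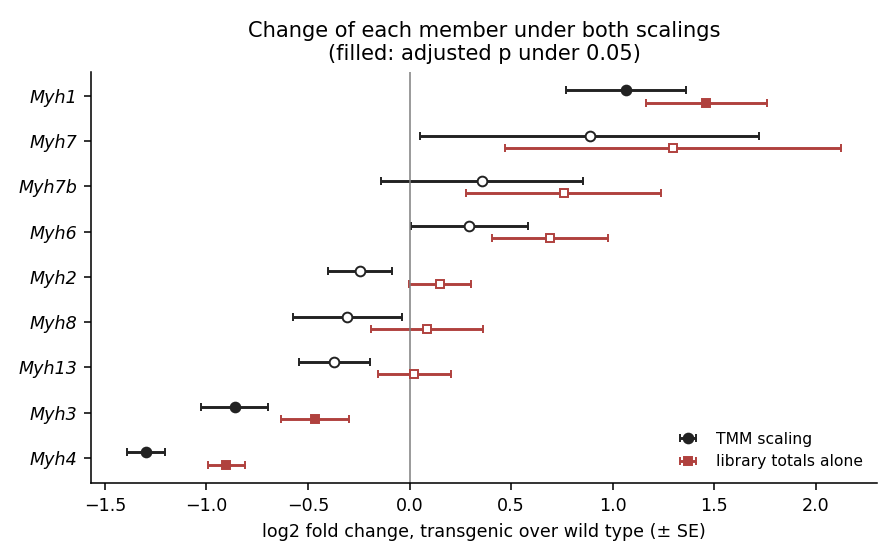
Log2 fold change (transgenic over wild type) with its SE for each member, with TMM scaling in black circles and library totals alone in red squares; filled symbols have an adjusted p under 0.05, from 3 libraries per genotype. Myh4 and Myh3 lie below 0 and Myh1 above 0 under both scalings, while Myh2, Myh8 and Myh13 change sign.

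The remaining members were scarce. Myh3, the embryonic chain (chr11:67078300-67102291), was at 8.45, 8.80 and 6.22 CPM in transgenic against 12.2, 13.1 and 17.2 CPM in wild-type libraries, from 232 to 456 counts per library. Its groups did not overlap, and it fell by 0.86 on the log2 scale (SE 0.165, edgeR adjusted p = 0.00204), or -0.47 with library totals alone (adjusted p = 0.0392). As a share of the family the genotypes overlapped, at 0.0217% against 0.0228% (exact permutation p = 0.7, n = 3 each).

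Myh8, the perinatal chain (chr11:67277124-67308634), was at 17.7, 17.2 and 11.2 CPM in transgenic against 17.8, 14.6 and 24.8 CPM in wild-type libraries. Its groups overlapped and its log2 fold change was -0.31 (SE 0.267, adjusted p = 0.391, edgeR), or 0.087 with library totals alone. Myh13, the extraocular chain (chr11:67321658-67371586), was at 10.03, 8.63 and 7.72 against 9.75, 9.76 and 14.7 CPM. Its log2 fold change was -0.37 (SE 0.174, adjusted p = 0.108, edgeR), or 0.024 with library totals alone, and the groups overlapped.

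Myh6, the alpha cardiac chain (chr14:54941921-54966927), was at 6.35, 5.86 and 3.0004 CPM in transgenic against 3.16, 4.52 and 4.59 CPM in wild-type libraries. Transgenic library 3 was the lowest of all, and the log2 fold change of 0.29 (SE 0.289, adjusted p = 0.433, edgeR) was called without it (0.58, adjusted p = 0.0189) and was -0.051 without both libraries numbered 1. The cardiac muscle markers Nppa, Nppb, Myl7, Tnni3 and Mybpc3 summed to 0.429 to 1.07 CPM in transgenic against 0.173 to 0.624 CPM in wild-type libraries, so heart transcripts were near 0. Myh7b (chr2:155611212-155634307) was at 10.6, 16.0 and 6.54 against 6.02, 13.0 and 6.15 CPM, overlapping, and its log2 fold change was 0.35 (SE 0.497, adjusted p = 0.600, edgeR). As with Myh7, library 2 was the highest in both genotypes.

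The developmental chains Myh3 and Myh8 can be set beside other genes of developing or regenerating muscle. Of 11 such genes 8 were tested, with 4 higher and 2 lower and a median log2 fold change of 0.28. Myog, the factor that starts terminal differentiation, rose by 1.66 (SE 0.255, adjusted p = 0.000987). Ncam1, Myf5 and the satellite cell factor Pax7 also rose, while Myf6 and Cdh15 fell. With library totals alone 5 rose and none fell: Myf6 was not called (0.091), and Cdh15 turned to a rise (0.20, adjusted p = 0.0236, edgeR). Over all genes tested 25.5% were called higher and 25.2% lower, and with library totals alone 52.3% and 8.73%. The myoblast fusion genes Mymk and Mymx and the fetal acetylcholine receptor gene Chrng were at most 0.295 CPM in every library and were not tested.

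Of the 9 members, 6 (Myh3, Myh2, Myh1, Myh4, Myh8 and Myh13) lie head to tail on the forward strand of chromosome 11, in a cluster that spans 293 kb in GRCm38. The neighbours Myh1 and Myh4 are the pair whose transcripts moved in opposite directions, and their stretches upstream of the start are printed here with those of Myh2 and Myh8 to show what these promoters share. The sequences are from RefSeq on GRCm38.p6, forward strand, ending just before the annotated start (that of Myh1 ends before the earlier start in the GENCODE annotation). Capitals mark a 14-base run common to all 4 and any TATAAA on the same strand.
Myh2 (chr11:67170777-67171026): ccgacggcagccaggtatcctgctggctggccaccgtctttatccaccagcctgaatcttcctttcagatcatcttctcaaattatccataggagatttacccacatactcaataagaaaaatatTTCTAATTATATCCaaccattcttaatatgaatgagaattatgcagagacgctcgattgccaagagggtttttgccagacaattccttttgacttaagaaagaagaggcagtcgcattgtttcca
Myh1 (chr11:67199852-67200051): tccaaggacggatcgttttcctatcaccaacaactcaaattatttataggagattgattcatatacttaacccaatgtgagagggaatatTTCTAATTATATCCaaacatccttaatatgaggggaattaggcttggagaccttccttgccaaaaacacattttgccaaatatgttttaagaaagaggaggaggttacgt
Myh4 (chr11:67237562-67237811): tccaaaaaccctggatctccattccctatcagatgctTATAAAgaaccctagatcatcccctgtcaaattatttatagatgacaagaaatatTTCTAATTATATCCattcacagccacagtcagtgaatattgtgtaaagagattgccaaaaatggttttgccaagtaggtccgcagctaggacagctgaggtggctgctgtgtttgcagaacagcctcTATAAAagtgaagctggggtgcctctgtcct
Myh8 (chr11:67276874-67277123): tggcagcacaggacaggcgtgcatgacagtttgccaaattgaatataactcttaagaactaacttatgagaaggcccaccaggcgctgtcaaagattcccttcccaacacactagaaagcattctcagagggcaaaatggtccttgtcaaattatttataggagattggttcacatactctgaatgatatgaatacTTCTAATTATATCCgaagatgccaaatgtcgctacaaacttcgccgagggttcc

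The run TTCTAATTATATCC was found by comparing these windows and is the longest that all 4 share. Among 32851 RefSeq promoter windows of 300 bases (250 before to 50 after the start, both strands searched), 4 hold it (0.0122%), and they are those of these genes. It begins 160 bases before the RefSeq start in Myh1, 158 in Myh4, 125 in Myh2 and 54 in Myh8. Because the run was picked as shared by all 4, its presence in the gene that rose and in the gene that fell was fixed by that choice. The motif TATAAA, the core of the TATA box, occurs in 13.6% of all windows and in 6 of the 10 windows of the members; it begins 31 bases before the start in Myh4 and 32 in Myh1, where it lies past the printed stretch. The E-box letters CANNTG, bound by MyoD-family factors, occur in 72.3% of windows and in 8 of 10 member windows. The CArG box, bound by serum response factor, occurs in 1.63% of windows and in those of Myh4 and Myh13. Matches overlapping other motifs were counted, and a match is a description of letters, not a site.

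**Figure D4:**
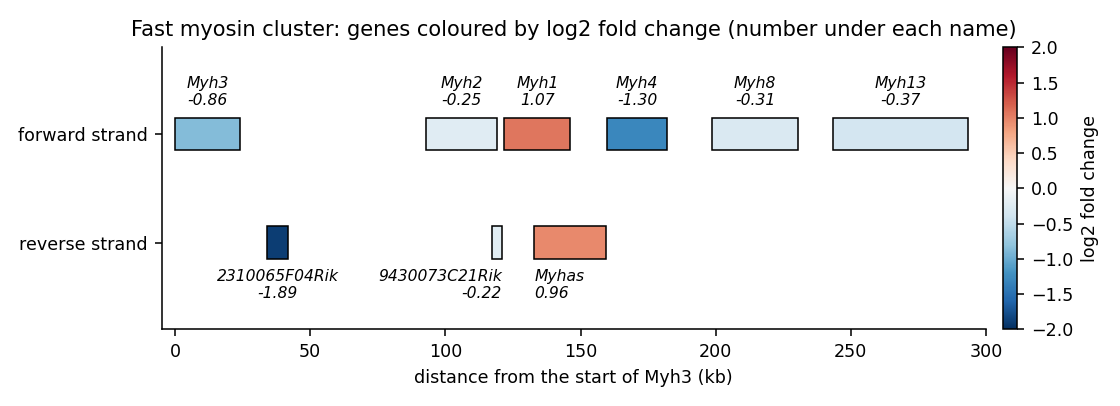
Genes of the fast myosin cluster drawn to scale by distance from the start of Myh3 in kb, on the forward (top) and reverse (bottom) strand, coloured by log2 fold change (transgenic over wild type) with the value under each name. Myh1 at 1.07 and its antisense neighbour Myhas at 0.96 lie between Myh2 at -0.25 and Myh4 at -1.30, and 2310065F04Rik at -1.89 is the lowest of the genes drawn; 2 small noncoding genes with at most 1 count per library are left out.

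The cluster also holds noncoding genes. 2310065F04Rik, known as linc-Myh, is a long noncoding RNA between Myh3 and Myh2 (chr11:67112461-67120080, reverse strand) described in mice as keeping the fast programme on and the slow programme off. It was at 48.7, 47.2 and 39.1 CPM in transgenic against 167, 174 and 159 CPM in wild-type libraries. All transgenic libraries were below all wild-type libraries, and it fell by 1.89 on the log2 scale (SE 0.082, edgeR adjusted p = 6.03e-08). With library totals alone its log2 fold change was -1.50. It shares no exon with a member.

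Myhas runs antisense through the end of Myh1 and toward Myh4, and 515 of its exonic bases, 25.4% of its length, lie over exons of Myh1. Counting ignored strand and assigned a fragment to each gene it touched, so reads of Myh1 and Myhas in that stretch cannot be told apart. Myhas had 11.7%, 11.8% and 11.4% of the Myh1 count in transgenic against 13.0%, 12.6% and 12.1% in wild-type libraries, and its log2 fold change was 0.96 (SE 0.264, edgeR adjusted p = 0.0325). The authors' deposited table gives Myhas -0.754 on the log2 scale, the opposite sign. 9430073C21Rik, which shares 237 exonic bases with the end of Myh2, had 6.94% to 7.97% of the Myh2 count in all 6 libraries and a log2 fold change of -0.22 (SE 0.173, edgeR adjusted p = 0.337). The authors' deposited table lists it at 0.628. For Myh4, Myh1, Myh3 and 2310065F04Rik the authors' deposited table gives -1.277, 0.927, -0.816 and -1.863, with the signs found here. It lists 3 of the 9 members, which are those 3 myosin genes, among genes past its own limits. Why the antisense genes differ in sign was not tested.

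The exons of Myh7 likewise lie over the antisense genes Mhrt (484 bases) and Gm29015 (142 bases). Mhrt had 8.12% to 9.19% and Gm29015 5.01% to 5.83% of the Myh7 count in all libraries, and neither passed the test (log2 fold changes 0.76 and 0.73). Among microRNA genes, Mir6923 lies inside Myh3 and had at most 1 count per library. Myh6, Myh7 and Myh7b each host a microRNA in an intron. These 3 microRNAs form a family with a nearly shared seed (bases 2 to 8, in capitals, RefSeq on GRCm38.p6). They are shown because they tie the slow and cardiac chains together by sequence.
mmu-miR-208a-3p (in Myh6, chr14:54949072-54949093, reverse strand): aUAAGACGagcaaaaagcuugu
mmu-miR-208b-3p (in Myh7, chr14:54975710-54975731, reverse strand): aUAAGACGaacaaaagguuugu
mmu-miR-499-5p (in Myh7b, chr2:155622893-155622913, forward strand): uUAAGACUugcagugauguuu

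The microRNAs of Myh6 and Myh7 share the seed UAAGACG, and that of Myh7b has the seed UAAGACU. Their precursor genes summed to 0, 1 and 0 counts over the 6 libraries, so the table gives no level for them.

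The members are close copies of one another, which bears on how far their counts can be separated. In the annotated transcripts the open reading frames were 5808 to 5829 bases long. Identity over the aligned reading frames was 91.66% for Myh6 and Myh7, 90.94% for Myh1 and Myh2, 90.09% for Myh1 and Myh4, and 67.9% to 71.7% for Myh7b with each of the others. Of all 50-base windows of the transcript, 26.7% in Myh1, 26.9% in Myh2, 18.9% in Myh4 and 22.2% in Myh7 occur unchanged in another member, falling to 9.73%, 9.17%, 3.85% and 11.2% for 100-base windows. Myh7b shared no such window. Per the file headers, fragments that map to several places were not counted, so a fragment wholly within shared sequence adds to no member. Levels of all members but Myh7b, Myh4 included, are uncertain in this respect. Read length is not given in the sources used here, so how many fragments were lost this way is not known.

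The slow and fast partners of myosin were read in the same fit. Of 9 fast-fibre genes all 9 fell, with a median log2 fold change of -1.17 beside -0.016 over all genes, and with library totals alone 8 fell. For comparison, with library totals alone 61% of all genes tested were called, 52.3% higher and 8.73% lower. Actn3, the fast-fibre Z-disc actinin, was at 3003, 2820 and 2775 CPM in transgenic against 9188, 9620 and 7305 CPM in wild-type libraries, and fell by 1.60 on the log2 scale (SE 0.099, adjusted p = 6.54e-07, edgeR). The regulatory light chain Mylpf, which binds the fast heavy chains, had the smallest change of the 9 (-0.34, SE 0.079, adjusted p = 0.00388, edgeR), and it did not pass with library totals alone (0.052). The essential light chain Myl1 fell by 1.17 on the log2 scale (SE 0.076, adjusted p = 5.27e-07, edgeR). Tnnc2, also on this list, shares 592 exonic bases with Ube2c.

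Of 9 slow-fibre genes, none rose and Myoz2, a Z-disc protein of slow fibres, fell (-1.24, SE 0.172, adjusted p = 0.00141, edgeR), with a list median of 0.62. With library totals alone 2 rose and 1 fell, as with DESeq2. Without both libraries numbered 2 there were 4 that rose and 2 that fell, with a median of 1.16. Of all genes tested, 18.9% were called higher and 19.2% lower with DESeq2. Without both libraries numbered 2 these shares were 21.5% and 20.9%. The slow troponin Tnnt1 was at 131, 258 and 103 CPM in transgenic against 55.5, 165 and 37.6 CPM in wild-type libraries, and Atp2a2, the slow-fibre calcium pump, at 606, 1111 and 575 against 287, 498 and 243 CPM. Atp2a2 did not overlap between genotypes (1.16, SE 0.439, adjusted p = 0.0946, edgeR). Myl3, the slow essential light chain that partners Myh7, did not overlap in the other direction, at 71.7, 167 and 59.8 against 187, 335 and 189 CPM (-1.26, SE 0.545, adjusted p = 0.130, edgeR). For all 9 slow-fibre genes library 2 was the highest in each genotype, as it was for Myh7, though Myoz2 and Casq2 differed little among the transgenic libraries. What sets those libraries apart was not tested.

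**Figure D5:**
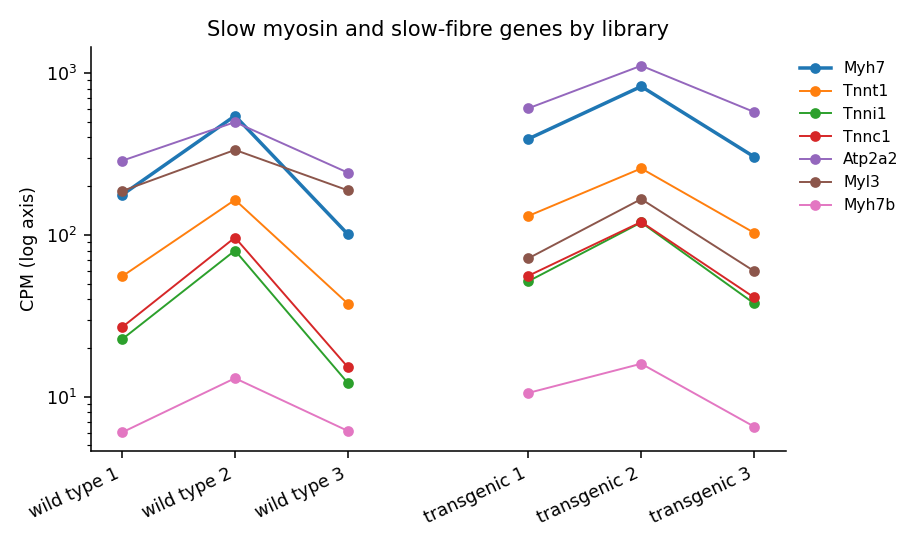
CPM of Myh7, Myh7b and 5 slow-fibre genes by library on a log axis; each line joins the 3 libraries of a genotype for a gene. Library 2 is the highest in both genotypes for all 7 genes, and Myl3 is the gene whose wild-type values all lie above its transgenic values.

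Genes whose profile over the 6 libraries was most like that of each main member were ranked by the root mean square difference of centred log2 CPM among 10495 genes of at least 5 CPM. For Myh7 they were the overlapping Mhrt (0.065) and Gm29015 (0.079), then the slow troponin genes Tnnt1 (0.10), Tnni1 (0.10) and Tnnc1 (0.12), where the median gene differed by 1.01. For Myh1 the nearest was the overlapping Myhas (0.066), followed at some distance by the small heat shock gene Hspb1 (0.18) and the actin filament gene Lmod2 (0.19). For Myh4 they were D1Ertd622e (0.061), Gnptab (0.065), Nkain1 (0.069), Fbxo40 (0.071) and Asb10 (0.075), with a median of 0.66 over all genes. Myh2 was nearest to the overlapping 9430073C21Rik (0.069). Likeness over 6 libraries from 2 genotypes is a description and largely reflects the genotype difference and libraries that stand apart.

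Among thick filament partners, 7 of 8 were tested, 1 rose and 4 fell, with a median of -0.60. Mybph, a myosin-binding protein, was at 119, 171 and 161 CPM in transgenic against 16.6, 27.7 and 10.7 CPM in wild-type libraries and rose by 3.01 on the log2 scale (SE 0.412, adjusted p = 0.00436, edgeR). Its exons share 1162 bases with Adora1 on the other strand. The fast-type Mybpc2 (-0.72), the M-band genes Myom1 (-0.64) and Myom2 (-0.60) and the titin gene Ttn (-0.83) fell, while the slow-type Mybpc1 was at 0.12 with an adjusted p of 0.640. With library totals alone 2 rose and 3 fell. All genes tested gave 25.5% higher and 25.2% lower, and 52.3% and 8.73% with library totals alone.

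Of 10 genes for myosin folding and turnover, 1 rose and 5 fell, with a median of -0.19. Trim54, a RING-finger protein of the sarcomere, was at 155, 160 and 150 CPM in transgenic against 414, 478 and 458 CPM in wild-type libraries and fell by 1.54 on the log2 scale (SE 0.066, adjusted p = 4.45e-08, edgeR). The methyltransferase Smyd1 (-0.68), the myosin chaperone Unc45b (-0.32), Trim55 (-0.89) and Trim63 (-0.29), the ubiquitin ligase MuRF1 that degrades myosin, also fell. Hsp90aa1, a chaperone that works with Unc45b, rose (0.76). Its level was low, at 16.9, 14.1 and 20.3 CPM in transgenic against 10.6, 8.78 and 11.1 CPM in wild-type libraries. Hsp90ab1, on the same list, was far more abundant, at 1242, 1096 and 1213 against 1163, 1183 and 1219 CPM. Its genotypes overlapped and it was not called (-0.0057, adjusted p = 0.952, edgeR), but it passed as higher with library totals alone (0.39). With library totals alone 5 rose and 3 fell, and Unc45b (0.079) and Trim63 (0.11) no longer passed. The shares over all genes tested were 25.5% higher and 25.2% lower, and 52.3% and 8.73% with library totals alone.

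Of 25 regulators of myosin isoform genes, 3 rose and 10 fell, with a median of -0.29, but with library totals alone 11 rose and 2 fell. How many of this list rose or fell therefore depended on the scaling, as it did over all genes tested. Of those, 25.5% were called higher and 25.2% lower with TMM scaling, and 52.3% and 8.73% with library totals alone. Under both scalings Sox6, a repressor of slow genes, fell (-0.63 and -0.23), as did Eya1, a transcriptional coactivator of fast genes (-0.63 and -0.23). Under both scalings Eya3 (0.54 and 0.94), Tead1 (0.41 and 0.81), which binds slow myosin promoters, and Hdac4 (0.49 and 0.89), a repressor of Mef2, rose. Exons of Hdac4 share 3536 bases with Gm26720. Nfatc1 (-0.43) and Mef2d (-0.41) fell with TMM scaling, and neither was called with library totals alone (-0.032 and -0.013).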

How the data were processed

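RNA from frozen gastrocnemius was sequenced from 6 libraries. Reads were aligned with STAR 2.5.0a to GRCm38.p6 and counted with featureCounts 2.0.0, per the submitters' processing notes. Counting ignored strand, per the file headers, assigned a fragment to every gene it overlapped and left out multi-mapping fragments. The deposited count table holds raw counts per gene. For genes past its limits, the authors' deposited table gives p-values, adjusted p-values and log2 fold changes from DESeq2. No column of another sample was present.

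Symbols and coordinates came from GENCODE for GRCm38 (51633 of 51911 gene IDs matched). Counts were tested in R 4.3.3 with edgeR 4.0.16 (filterByExpr, TMM factors, robust quasi-likelihood fit, genotype alone, Benjamini-Hochberg over all tested genes, threshold 0.05). The procedure was checked on simulated data in which few genes changed, up and down alike, with the same spread for every gene. That check does not cover a shift as broad as the one here, or members that varied widely between libraries. SE is the absolute log2 fold change over the root of F. CPM uses TMM-scaled library sizes. TMM factors were 1.15 in each transgenic and 0.851 to 0.885 in wild-type libraries; with library totals alone the median of all log2 fold changes went from -0.016 to 0.38. Log2 CPM for profile likeness used a prior count of 2. Shares and ratios were tested by exact permutation of libraries with scipy 1.17.1. Reading frames were aligned with mafft 7.526.

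The members, gene lists and settings were chosen with earlier results of these data known. All 9 members are named; other genes come from the fixed lists, from the noncoding genes of the loci and from the 5 nearest profiles. Of the genes in the lists, 1 is counted but not reported here by name. Alternatives were library totals alone, upper-quartile factors, DESeq2 1.42.0, limma-voom (limma 3.58.1), 2 other low-count filters, no robust estimation, leaving out each library, and a replicate block. Leaving out both same-numbered libraries was added after seeing the data. Precision of scarce members is limited by counts.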

Additional observations from a re-analysis of the deposited data

How the results depend on the processing

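Myh4 and Myh3 passed as lower in all 17 alternatives. The number of members called was 2 to 3 when 1 library was left out. It was 5 with a replicate block, where Myh7 (1.11, adjusted p = 0.0231) and Myh7b (0.39, adjusted p = 0.0339) joined, and slow-fibre genes called were 3 higher and 2 lower, against 0 and 1; the block is a hint only, since same-numbered libraries did not deviate together (correlations 0.10, -0.088 and -0.21). With the block 8331 genes were called, which is 50.2% of those tested (25.1% higher and 25.1% lower). Without it 8419 were called, and 7449 to 7888 with 1 library left out. The Myh1 call was lost in 7 alternatives, with values of 0.77 (without both libraries numbered 1) to 1.21 (without both numbered 3). Signs turned with library totals alone for Myh2 (0.15), Myh8 (0.087) and Myh13 (0.024), for Myh6 without both libraries numbered 1 (-0.051) and for Myh8 without both numbered 3 (0.13). Myh13 passed with all genes of at least 1 count kept (-0.33, adjusted p = 0.0153), and Myh2 (-0.50) and Myh6 (0.66) passed without both libraries numbered 1 and 3 respectively. Leaving out 1 library gave a Myh4 share difference of -30.04 to -22.6, a Myh1 share difference of 19.2 to 26.2, a Myh2 share difference of 2.21 to 3.297 and a Myh7 share difference of 0.534 to 1.24 percentage points. The Myh2 share difference was 1.65 without both libraries numbered 1. Calls over the lists stayed at 40 to 44 with 1 library left out, against 46. Whether these dependences have a technical cause was not tested. The spread of Myh7 and Myh7b between libraries limits what 3 libraries a genotype can show, and the 5 scarce members rest on 73 to 557 counts per library.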

Other observations

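The myosin heavy chains outside the striated family were measured too. Of 5 such genes, 4 were tested, 1 rose and 3 fell. Myh14, a nonmuscle chain, was at 124, 112 and 116 CPM in transgenic against 77.6, 82.7 and 91.5 CPM in wild-type libraries and rose by 0.48 on the log2 scale (SE 0.070, edgeR adjusted p = 0.000163). Myh11, the smooth muscle chain, fell (-0.89, SE 0.125, adjusted p = 0.000511, edgeR), and the summed level of the 5 smooth muscle markers, which include it, was 74.9 to 92.8 CPM in transgenic against 120 to 168 CPM in wild-type libraries. The nonmuscle chains Myh10 (-0.52) and Myh9 (-0.20) also fell with TMM scaling, but with library totals alone Myh10 was not called (-0.13) and Myh9 rose (0.20). With library totals alone 2 of the 4 rose and 1 fell. Among all genes tested 25.5% were higher and 25.2% lower, and 52.3% and 8.73% with library totals alone.

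Some markers of other cells stood apart in single libraries. The 4 Schwann cell markers summed to 190, 42.8 and 57.2 CPM in transgenic against 145, 110 and 66.6 CPM in wild-type libraries. The 5 adipocyte markers summed to 159, 140 and 131 CPM in transgenic against 286, 187 and 177 CPM in wild-type libraries. Of the 286 CPM, 213 came from Fabp4. Library 1 thus had the highest sum in each genotype. Myh2 was at its lowest for the genotype in wild-type library 1, but at its highest in transgenic library 1 (3600 CPM). The part of the adipocyte markers in the Myh2 values was not tested.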
